A study of Mus musculus with 4 samples.

Results

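Tandem arrays of cleavage sites were runs of 3 or more poly(A) sites that followed each other on one strand of the mouse genome. Reads of both 3'READS libraries were pooled by position, positions at most 24 nt apart were chained into sites, and autosomal sites with 30 or more reads were kept. Neighbours joined a run when their most used positions lay at most 5000 nt apart and no kept site of the other strand fell between them. Of 12193 runs, 795 were arrays of 3 or more sites, 2086 were pairs and 9312 were single sites. The arrays held 2695 of the 16179 autosomal sites (16.7%) and 1775896 of their 9109110 reads (19.5%). The members were thus chosen by pooled reads, positions and strand, so their number, spacing and reads are a description. The CLIP data were not used by the rule. Nor was the division of reads between the oligos, but the pooled reads were not scaled to library size. The larger CU5T45 library (6738355 reads against 3482826) therefore weighed more in which sites passed, and the oligo ratios are not fully independent of the rule.

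3'READS isolates RNA fragments that end in a poly(A) stretch and reads off where the transcript was cut. The first library was captured with the CU5T45 oligo on streptavidin beads, washed at low salt with formamide and eluted by digestion with RNase H. The other was captured on the oligo(dT)10-25 beads of a regular poly(A) selection kit. Both came from total RNA of a commercial mix of 11 mouse cell lines, with 1 library for each oligo. The labels name neither the lines nor any treatment. CstF64, the subunit through which the cleavage stimulation factor touches RNA, was crosslinked to RNA by UV light in proliferating C2C12 myoblasts, a mouse muscle precursor line, and given as CLIP-seq replicates 1 and 2.

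Most mammalian genes carry more than one poly(A) site. Cleavage at a site close to the coding sequence gives a short 3′ untranslated region, cleavage further downstream a longer one, and a site inside an intron ends the transcript early. Each site is read by a complex that binds the poly(A) signal upstream of the cleavage position and, through CstF64, U- and GU-rich sequence close to it. Neighbouring genes on one strand can also place their sites in one run. Each site is given by its most used position (build mm9), and first, middle and last follow the direction of transcription. Genes are not named, no sequence is shown and the labelled cell types were not checked against marker genes, because the annotation used here belongs to another build.

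The CU5T45 library held 6738355 reads and the oligo(dT)10-25 library 3482826. The CLIP replicates held 1071649 and 1316558 distinct autosomal alignments. No replicate error can be had from single libraries and no test was run, so intervals of shares and ratios are 95% intervals of counting error alone, intervals of medians are 95% rank intervals over sites or arrays, and reads amplified by PCR are not independent molecules. Of the CLIP alignments, 864214 had the same start, end and strand in both replicates, which is 80.6% of replicate 1 and 65.6% of replicate 2. The labels do not say whether the replicates came from separate cultures. An alignment found in both replicates is not taken as an independent repeat here, and the replicates are counted as 1 sample with both values given. In a mix of lines, fewer cells that use a site and less RNA per cell cannot be told apart.

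Most arrays were short. Arrays of 3 sites numbered 585 and arrays of 4 sites 151, while 34 had 5 sites, 16 had 6 and 6 had 7. The longest had 8, 9 and 11 sites. They lay on the plus strand in 407 cases and on the minus strand in 388, and on every autosome, with 27 on chromosome 18 that are counted but not named. Of the sites on a chromosome, arrays took between 11.1% on chromosome 7 and 22.6% on chromosome 12. The span from the first to the last site had a median of 1735 nt, with quartiles of 868 and 3192.5 nt, and ran from 115 to 12437 nt.

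Neighbouring sites of an array lay a median of 493 nt apart, closer than the sites of a pair, at 761.5 nt. Of 1900 gaps, 241 were under 100 nt, 718 lay from 100 to under 500 nt, 652 from 500 to under 2000 nt and 289 from 2000 to 5000 nt. The last gap was the longer one more often than not. It had a median of 660 nt, against 436 nt for the first gap, and was longer in 480 arrays and shorter in 314. In 587 arrays all gaps were at least 100 nt, and in 11 arrays all were under 100 nt. Just inside and outside the limits, 269 autosomal clusters had exactly 30 reads and 273 had 29. Of same-strand neighbours, 39 fell short of the 5000 nt limit by at most 200 nt and 30 exceeded it by at most 200 nt, and a kept site on the other strand separated 138 of the 4124 neighbours within 5000 nt. Between the kept sites, array spans held another 1212 small clusters of 3 to 29 reads, with 10627 reads in all.

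No place in the array had the most reads as a rule. Among the 585 arrays of 3 sites, the first site had the most reads in 182 (31.1%, interval 27.4 to 35.0), the middle site in 196 (33.5%, 29.7 to 37.5) and the last in 207 (35.4%, 31.5 to 39.4). All 3 intervals include the 33.3% that each place makes up of the sites. In arrays of 5 or more sites the first site led in 4 of 59 (6.78%, 1.88 to 16.5), below its 17.6% of the sites, and the last in 16 (27.1%, 16.4 to 40.3). Pairs leaned downstream, with the last site leading in 1117 of 2086 (53.5%, 51.4 to 55.7). Over all arrays the median share of reads was 20.2% (18.4 to 22.3) at first, 18.7% (17.2 to 20.1) at middle and 25.2% (22.4 to 26.7) at last sites. The interval of last sites thus lay above both others, and just above that of first sites. Median reads were 96, 96 and 102. The median shares mix array sizes, and the middle was not lowest within a size. In arrays of 3 the shares were 24.3%, 25.2% and 27.1%, and in arrays of 4 or more 12.4%, 12.7% and 17.4%. Within each of these sizes the intervals of the places overlapped.

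**Figure D1:**
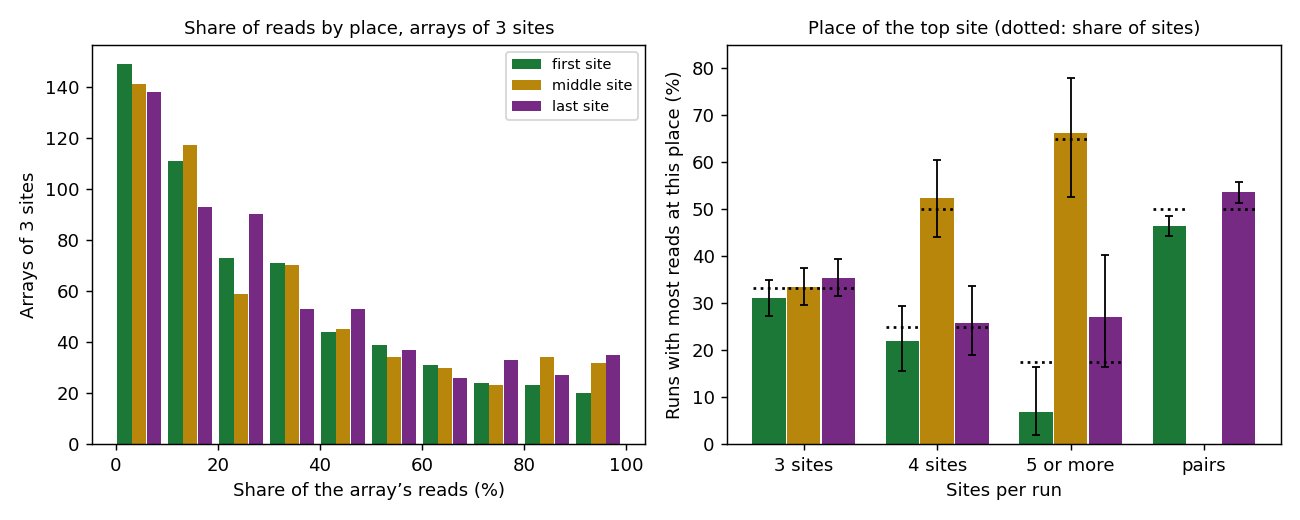
Left, number of arrays of 3 sites by the share of their pooled reads at the first, middle and last site, and right, percentage of runs whose most used site was the first, middle or last, with exact binomial 95% intervals as bars and dotted lines at the percentage of sites in that place. The first site of arrays of 5 or more led in 6.78%, with an interval that lies under its 17.6% of sites, and that of pairs in 46.5%, under its 50.0%.

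One site usually dominated. The most used site took a median of 62.0% of an array's reads, with quartiles of 48.7% and 80.8%, more than 90% in 99 arrays and under 50% in 225. The dominance was steepest in the most abundant arrays. In the 22 arrays with at least 10000 reads the top site took a median of 97.0% and the least used site 0.275%. In the 532 arrays with under 1000 reads these medians were 55.1% and 12.3%. The read minimum of each site bounds this, since a site of 30 reads cannot be a small share of a small array. The 22 abundant arrays held 47.4% of all array reads.

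Sites with a very small share of their array were wider than the others. Among array sites of 30 to under 300 reads, the 83 sites with under 1% of the array's reads had a median width of 22 nt, and a median of 56.4% of their reads fell on 1 position. For the 1302 sites with 10% or more of their array the width was 16 nt and 68.6% fell on 1 position. The 691 sites between these classes were also 16 nt wide, with 65.6% on 1 position, so only the sites under 1% were wider. Median reads of the site were 44 under 1%, 50 in between and 90 at 10% or more. Median reads of the array were 8809, 1271 and 350.5, and the 83 sites came from 56 arrays. These classes are thus matched neither on the reads of the site nor on those of the array. Whether width or CLIP goes with the abundance of the array instead was not tested. CLIP alignments in both replicates lay within 100 nt of 26.5% (17.4 to 37.3) of the sites with under 1%, 50.7% (46.9 to 54.4) of those in between and 54.5% (51.8 to 57.3) of those with 10% or more.

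Last sites were somewhat narrower than first and middle sites. Clusters at first and middle sites spanned a median of 20 nt each and those at last sites 16 nt, and the most used position held 67.2%, 66.1% and 71.3% of their reads. The quartiles of width overlapped broadly, at 11 and 33 nt for first and 8 and 26 nt for last sites. Pairs showed the same order, with 17 nt and 71.4% at first and 15 nt and 72.9% at last sites. At single sites the median width was 13 nt and the top position held 75.5%. Arrays need gaps over 24 nt to be seen as separate sites, and a diffuse zone of cleavage with such gaps would count as several sites.

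The array with most sites ran over 5162 nt of chromosome 6, plus strand, from 67234083 to 67239245. Its 11 sites held between 31 and 756 reads, and the most used, the eighth, had 432 CU5T45 and 324 oligo(dT)10-25 reads, 33.6% of the pooled total. Neighbouring sites differed widely between the oligos. The seventh, at 67235958, had 3 CU5T45 and 77 oligo(dT)10-25 reads and was 49.7-fold lower in CU5T45 (16.4 to 246). The third, at 67234387, had 64 and 138 reads and was 4.17-fold lower (3.08 to 5.70). The last site had 111 and 28 reads, 2.05 times the oligo(dT)10-25 share (1.34 to 3.22). The ratio thus took both directions within one array.

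The array with 9 sites, on the plus strand of chromosome 10 from 33194471 to 33200188, had 2 leading sites. The second site, at 33196452, had 397 CU5T45 and 125 oligo(dT)10-25 reads, 38.8% and 25.1% of each library's reads in the array. The sixth, at 33197327, had 269 and 120 reads, or 26.3% and 24.05%. The fourth, the fifth and the ninth site were lower in CU5T45, by 4.40-fold (2.09 to 9.90), 2.66-fold (1.74 to 4.10) and 2.61-fold (1.73 to 3.97). None of its sites had a CLIP alignment within 100 nt in either replicate.

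The array with 8 sites, on the plus strand of chromosome 5 from 90894991 to 90905851, was the opposite case. Its sixth site, at 90905627, held 43200 CU5T45 and 63530 oligo(dT)10-25 reads, 98.9% and 99.7% of the array. The other 7 sites had between 30 and 268 reads. The dominant site was 2.85-fold lower in CU5T45 (2.81 to 2.88), while the 5 sites upstream of it had ratios of 1.03 to 3.30. Of these, the fourth, with 34 and 6 reads, and the fifth, with 51 and 8 reads, had intervals above 1 (1.22 to 8.53 and 1.55 to 8.04). Both sites downstream of it had intervals that included 1. Upstream satellites were diffuse, 53 to 128 nt wide, with at most 45.9% of their reads at one position, against 92.0% at the dominant site.

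Of the 6 arrays with 7 sites, the 2 with most reads are described, and both had their main site at the end. The last site of the other 4 took between 3.07% and 50.5% of the CU5T45 reads and between 2.801% and 42.5% of the oligo(dT)10-25 reads. On the minus strand of chromosome 3, from 108019318 to 108015181, the last of 7 sites held 4614 CU5T45 and 1827 oligo(dT)10-25 reads, 82.3% and 85.4% of the array. The fifth site, with 510 and 107 reads, was 2.46 times as high in CU5T45 (2.00 to 3.06), and the second, with 58 and 68 reads, 2.27-fold lower (1.57 to 3.28). On the plus strand of chromosome 17, from 39983289 to 39985167, the last of 7 sites held 4268 and 1571 reads, 86.3% and 83.1% of the array. This site was spread over 248 nt with only 15.7% of its reads at one position.

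**Figure D2:**
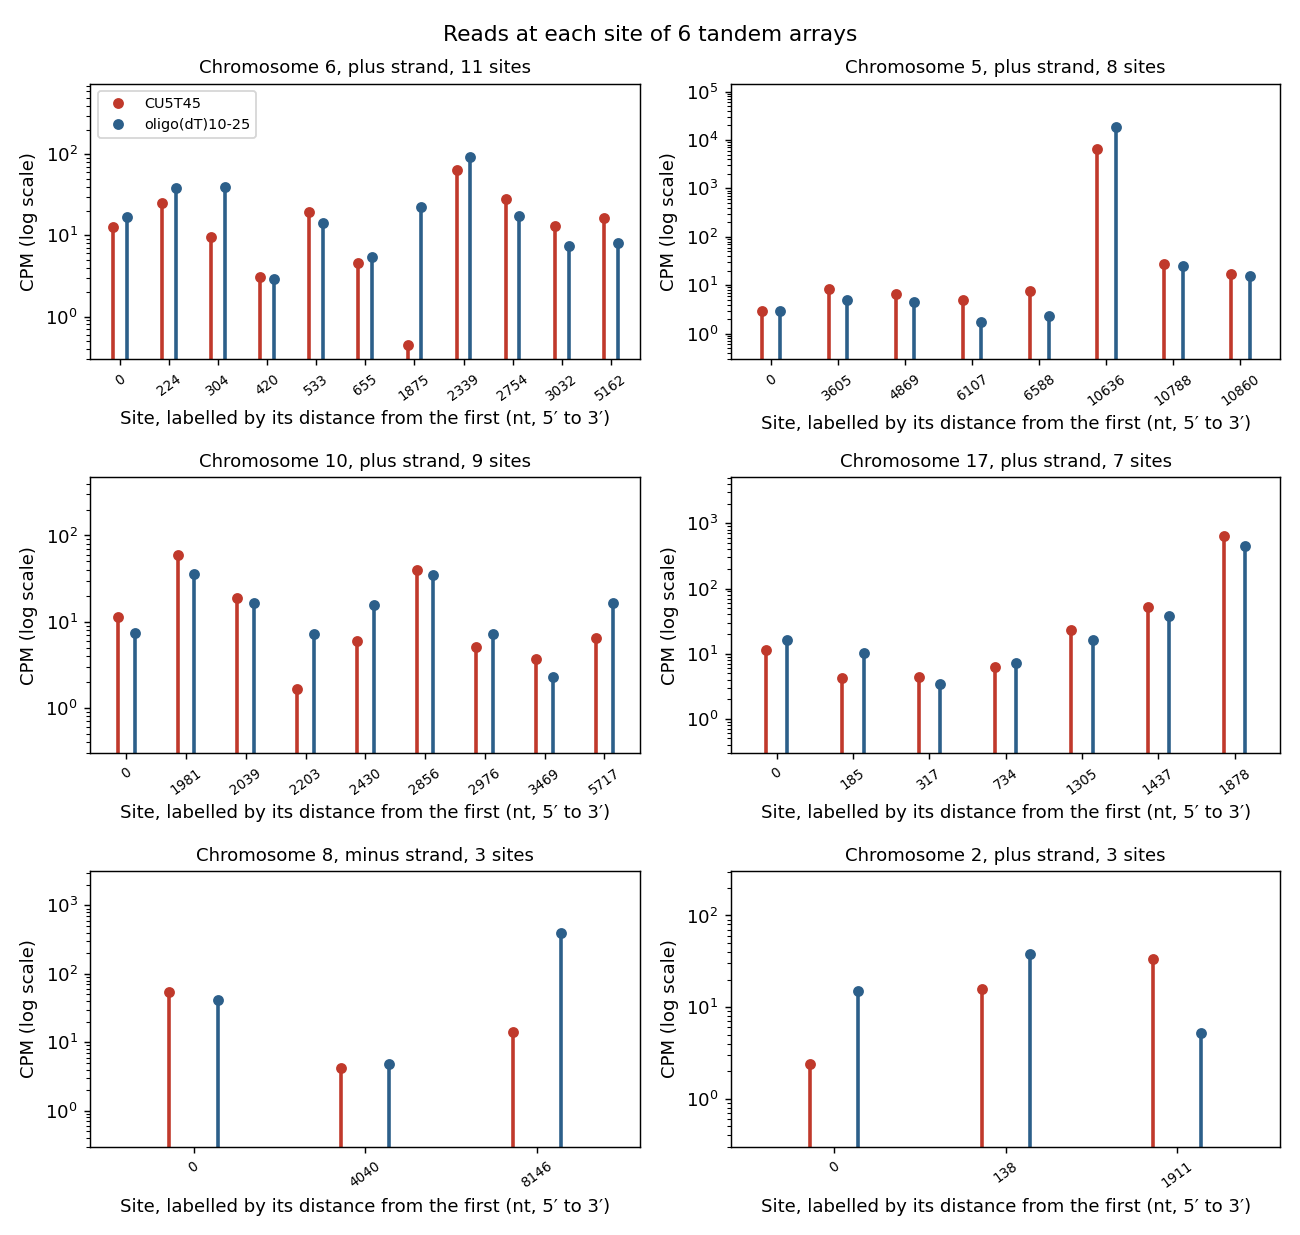
Reads per 1e6 library reads (CPM, log scale) at each site of 6 arrays, in order from first to last and labelled by distance from the first site in nt, with CU5T45 in red and oligo(dT)10-25 in blue, 1 library each. The chromosome 5 array has 1 dominant site with 98.9% and 99.7% of its reads, and the last site of the chromosome 8 array is 28.1-fold lower in CU5T45 while its first site is 1.29 times as high.

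The 5 arrays with most reads each had 1 or 2 main sites beside sites with far fewer reads. The most read array, on the plus strand of chromosome 11, had its main site at 67073943 with 108060 CU5T45 and 36748 oligo(dT)10-25 reads, between satellites of 19 and 11 reads upstream and 28 and 9 reads downstream. On the minus strand of chromosome 7, the second of 4 sites, 20281618, held 15711 and 7900 reads and the last, 20274829, 63403 and 51073. The main sites there differed in their response to the oligo. The second had a ratio of 1.03 (1.00 to 1.06) and the last was 1.56-fold lower in CU5T45 (1.54 to 1.58). The array on the minus strand of chromosome 16 also had 2 main sites, 10791472 with 40328 and 12542 reads and 10788027 with 19388 and 8804 reads, at ratios of 1.66 (1.63 to 1.70) and 1.14 (1.11 to 1.17). The chromosome 9 array had its main site at 46079493, plus strand, which held 97.0% of the array's CU5T45 and 97.3% of its oligo(dT)10-25 reads. The remaining array is the one with 8 sites on chromosome 5.

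The next question was whether the oligos gave the same picture of the choice between tandem sites. By place the intervals of the medians overlapped. The log2 ratio of the CU5T45 to the oligo(dT)10-25 share had a median of 0.12 (0.06 to 0.20) at first, 0.08 (0.02 to 0.16) at middle and 0.07 (-0.03 to 0.14) at last sites. The difference of these medians, last minus first, was -0.05, and within an array the last minus the first log2 ratio had a median of -0.04 (-0.16 to 0.04). With sites of 20 or more reads the difference of medians was -0.11. No rank interval was computed for this difference itself. With the width of the within-array rank interval centred on it, the range was -0.22 to -0.01, which leaves out 0. Within pairs the last minus the first log2 ratio had a median of -0.15 (-0.21 to -0.07). At least 2-fold higher in CU5T45, with an interval above 1, were 264 of the 2695 array sites (9.80%, 8.70 to 11.0), beside 11.2% of all autosomal sites. At least 2-fold lower were 373 (13.8%, 12.6 to 15.2), beside 13.9% of all. The share of lower sites was thus close to that of all sites and the share of higher sites somewhat under it. Among the array sites, 2 were without CU5T45 reads and 1 without oligo(dT)10-25 reads.

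Ratios were also compared between neighbouring sites of an array. In the 448 neighbouring array sites with 100 or more reads each, the log2 ratios differed by a median of 0.70, and in 36.8% by at least 1. Pairs differed by a median of 0.79, with 40.2% at least 1 apart, so arrays did not exceed them. Over all autosomal sites the log2 ratio had quartiles of -0.52 and 0.63. The difference between sites that are not neighbours was not computed, so these values are not read as a trait of neighbours. The difference was much the same at any distance, 0.78 for gaps under 100 nt, 0.76 from 100 to under 500 nt, 0.64 from 500 to under 2000 nt and 0.70 beyond. Of the 795 arrays, 478 had at least 1 site with a 2-fold difference, 160 of them with sites that were higher in CU5T45 only, 247 with sites that were lower only and 71 with both kinds. These 71 are 8.93% of the arrays, and 3.31% of pairs, which have fewer sites, held both kinds. At least 1 site with such a difference was found in 911 of 2086 pairs. Of all autosomal sites 11.2% were called higher and 13.9% lower. These counts thus rise with the number of sites in a run and are not read as a trait of arrays.

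Each library nevertheless led to the same main site in most arrays. The most used site was the same in 629 of 795 arrays (79.1%, 76.1 to 81.9) and in 1719 of 2086 pairs (82.4%, 80.7 to 84.0). Where it was another site, CU5T45 placed it downstream in 79 arrays and upstream in 87. The share of reads at the last site, CU5T45 minus oligo(dT)10-25, had a median of 0.00142 percentage points (-0.502 to 0.447), with quartiles of -5.81 and 6.05. It was higher in CU5T45 in 398 arrays and lower in 397. By at least 10 points and with separate intervals it was higher in 96 arrays (12.1%), beside 11.3% of all runs of 2 or more sites, and lower in 101 (12.7%), beside 15.0%.

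**Figure D3:**
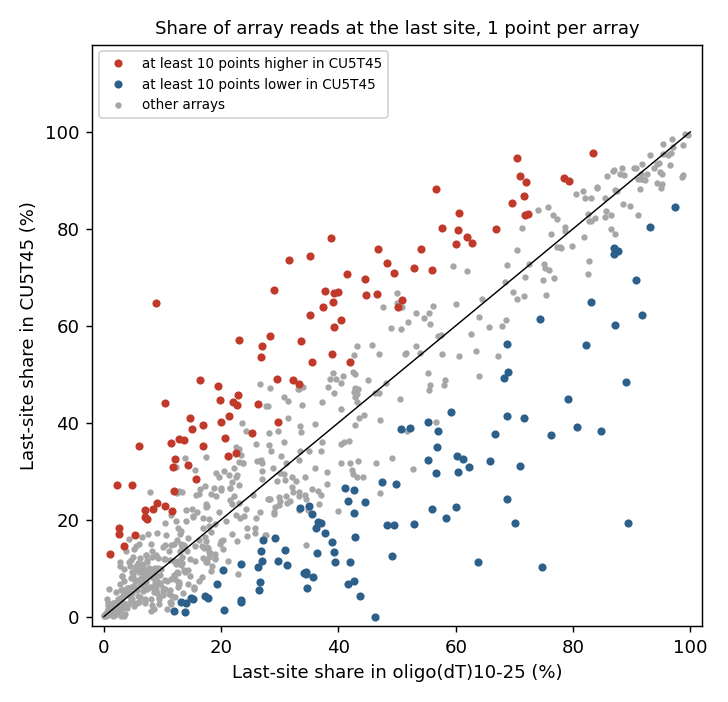
Share of an array's reads at its last site in the CU5T45 library against that in the oligo(dT)10-25 library, 1 point per array, with the line of equal shares. Red points are the 96 arrays with a share at least 10 percentage points higher in CU5T45 and blue points the 101 with one at least 10 points lower, each with separate intervals.

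The largest shifts away from the last site in CU5T45 ran from 46.5 to 70.0 percentage points, and in each the last site was at least 5.80-fold lower in CU5T45. On the minus strand of chromosome 8 the last site, 72534319, was 28.1-fold lower in CU5T45 (22.8 to 35.1), with 94 reads against 1367 in oligo(dT)10-25. Of its pooled reads 99.9% fell on 1 position, where PCR copies of few molecules were not told apart from separate molecules. The first site, 72542465, 8146 nt upstream, had 363 and 145 reads, 1.29 times as high (1.06 to 1.58). The last site took 19.4% (16.0 to 23.2) of the CU5T45 and 89.4% (87.8 to 90.9) of the oligo(dT)10-25 reads, so each library names another main site. Next came chromosome 5, plus strand, where the last site, 77428961, was 21.7-fold lower (15.2 to 31.8), with 34 and 381 reads, and took 10.2% and 74.7% of the array. The last site at 21221126 on the plus strand of chromosome 11 had 23 and 123 reads, 11.2% and 63.7% of its array. That at 60258778 on the same strand had 50 and 276 reads, 19.4% and 70.1%. The other, at 4593354 on the plus strand of chromosome 6, had 39 and 117 reads, 38.2% and 84.8%. In these 5 arrays the first sites had ratios between 0.525 and 1.94.

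The largest shifts toward the last site ran from 33.5 to 55.7 points. On the plus strand of chromosome 2 the last site, 162762856, had 223 CU5T45 and 18 oligo(dT)10-25 reads, 6.40 times as high (3.96 to 11.0), with 98.8% of its pooled reads at 1 position. The first site, 162760945, had 16 and 52 reads and was 6.29-fold lower (3.53 to 11.8). The share of the last site was 64.6% (59.3 to 69.7) in CU5T45 and 8.91% (5.37 to 13.7) in oligo(dT)10-25, with the first site lower and the last higher. In each of the other 4 arrays an inner or first site was low in CU5T45, and in 3 of them the last site was also higher, with intervals above 1. The second site at 57220072, chromosome 2, plus strand, was 5.39-fold lower with 84 and 234 reads (4.18 to 7.001), and the last, 57223129, was 2.00 times as high (1.64 to 2.45). The second site at 157122830, chromosome 1, minus strand, had 14 and 66 reads, 9.12-fold lower (5.07 to 17.6), all at 1 position. On the minus strand of chromosome 9, 107500546 had 121 and 180 reads, 2.88-fold lower (2.27 to 3.65), and the last site 103 nt further had 107 and 23, 2.40 times as high (1.52 to 3.95). The first site at 87441953, chromosome 5, plus strand, was 4.13-fold lower (2.64 to 6.60), with 30 and 64 reads, and the last site, 87442909, had 150 and 53, 1.46 times as high (1.06 to 2.04).

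CstF64 was then placed on the arrays. Alignments in both replicates lay within 100 nt of 1457 of the 2695 array sites (54.1%, 52.2 to 56.0), of 46.5% (45.5 to 47.5) of single sites and of 50.4% of all autosomal sites. Pairs had them at 58.6% (56.5 to 60.8) of first and 55.1% (53.0 to 57.3) of last sites, so the share was not higher in arrays than in pairs. On the opposite strand the share was 4.34% (3.60 to 5.18) at array sites and 7.88% (7.34 to 8.45) at single sites. The rule allows no kept site of the other strand between the members of an array, so these opposite-strand shares give the background of each set and are not compared. First sites had them in 58.1% (54.6 to 61.6), middle sites in 51.6% (48.6 to 54.6) and last sites in 53.5% (49.9 to 57.0). The intervals of first and middle sites do not overlap but lie close (lower end of first sites 54.596%, upper end of middle sites 54.568%), and that of last sites overlaps both. The median site had 1 alignment in each replicate at every place.

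The places stood furthest apart at sites with few reads. At 30 to 99 reads, 56.3% (51.3 to 61.2) of first, 46.0% (41.8 to 50.1) of middle and 45.5% (40.5 to 50.6) of last sites had alignments in both replicates, so the interval of first sites lay above both others. Pairs showed the same order, with 55.2% (52.2 to 58.2) of first and 47.9% (44.7 to 51.1) of last sites, and single sites had 39.2% (37.7 to 40.7). From 100 to under 1000 reads the shares of first, middle and last sites were 60.2%, 58.4% and 61.0%, with intervals that overlap. Middle sites share their window with neighbours on both sides. Sites with no other site within 400 nt avoid this, and among those with under 100 reads the shares were 58.5% (51.7 to 65.2), 48.1% (40.7 to 55.6) and 44.4% (38.1 to 50.8), where the intervals of first and last sites are separate and that of middle sites overlaps both. Within an array, the first site alone of the outer sites had alignments in 133 arrays and the last alone in 96, with 329 arrays that had them at both and 237 at neither. In the 425 arrays whose last site had more reads than the first, it was the first alone in 59 and the last alone in 63, so this order was not seen there.

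**Figure D4:**
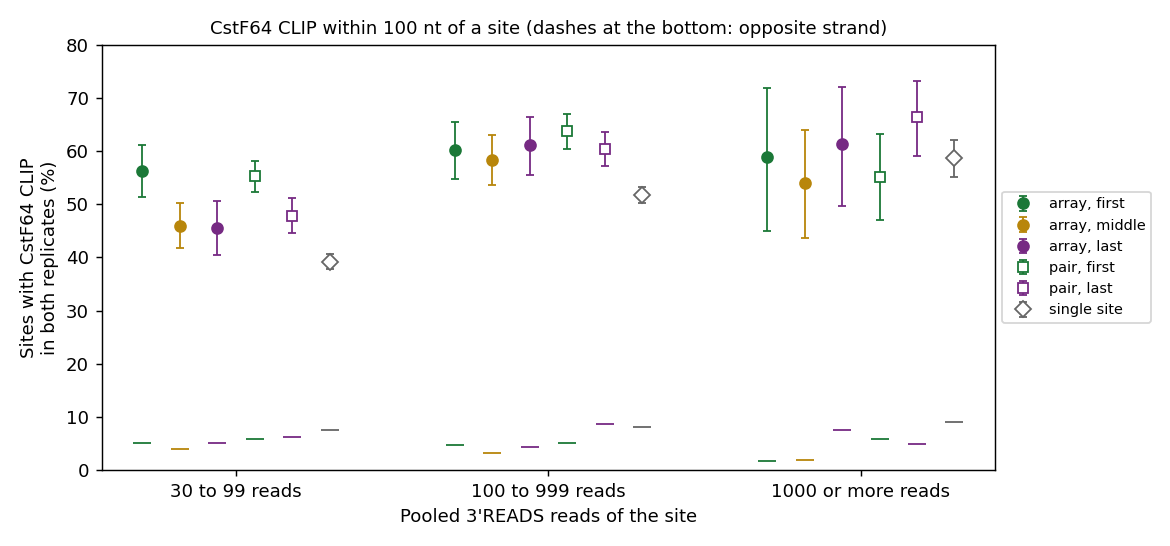
Percentage of sites with CstF64 CLIP alignments in both replicates within 100 nt, by pooled reads of the site and by place in arrays (filled circles), pairs (open squares) and single sites (open diamonds), with exact binomial 95% intervals. Dashes give the same on the opposite strand; at 30 to 99 reads, first sites of arrays are at 56.3% and last sites at 45.5%.

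Alignments were also most numerous at first sites among separated sites. The values leave out the array on chromosome 17 described at the end. Where no other site lay within 400 nt, the 20 nt just upstream of the cleavage position held 973 and 1209 alignments per 1000 first sites in replicates 1 and 2, 475 and 612 per 1000 middle sites and 538 and 676 per 1000 last sites. Single sites had 451 and 558. Few sites carry much of this. In each place the 10 sites with most alignments held between 27.4% and 29.1% of them, and without these the values were 607 and 769 at first, 351 and 449 at middle and 343 and 421 at last sites. Alignments within 100 nt lay upstream of the cleavage position in 56.8% and 56.8% of cases at first sites, 46.3% and 46.5% at middle sites and 49.8% and 50.3% at last sites. The C2C12 cells are not the mix, so the RNA available at each site in those cells is unknown.

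**Figure D5:**
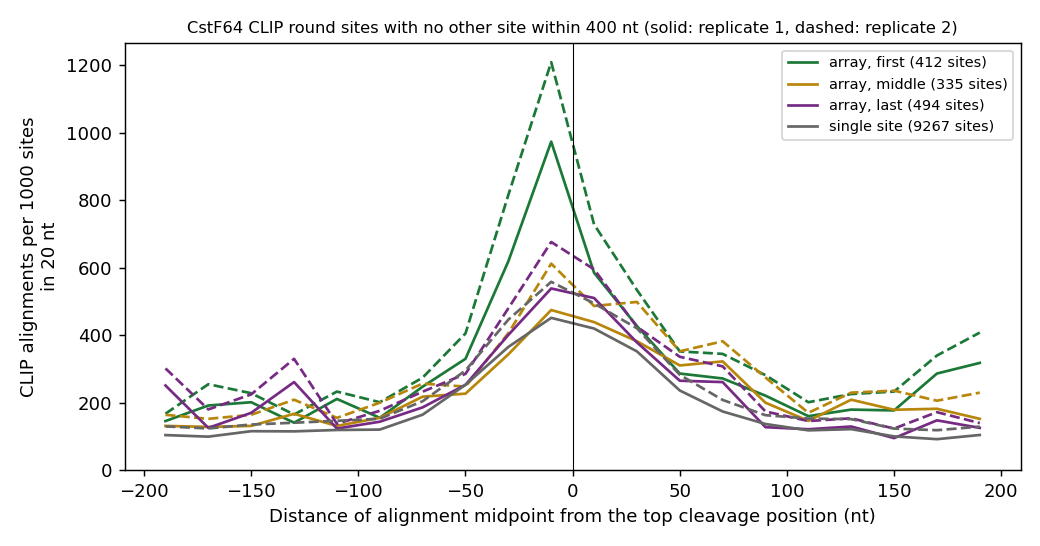
CstF64 CLIP alignments per 1000 sites in 20 nt steps by the distance of their midpoint from the most used cleavage position, negative upstream, for sites with no other kept site within 400 nt on the strand and without the chromosome 17 array. First sites of arrays peak at 973 (replicate 1, solid) and 1209 (replicate 2, dashed) alignments per 1000 sites, above middle, last and single sites.

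Between the sites CLIP alignments were denser than on either side of the arrays, again without the chromosome 17 array. In gaps of 300 nt or more, the stretches over 100 nt from either site held 6.67 and 8.19 alignments per kb, over 1467 kb in 718 arrays. Stretches of 900 nt, which start 100 nt from the outer sites, held 4.86 and 6.03 per kb before the first and 4.62 and 5.67 after the last site. The medians over arrays, less moved by a few dense arrays, were 4.32 and 5.13 per kb between sites, 2.22 and 2.22 before and 2.22 and 3.33 after them. On the opposite strand these stretches held 0.324 and 0.404, 0.383 and 0.470, and 0.821 and 1.06 per kb. In arrays without small clusters of 3 to 29 reads in the span, the densities were 6.03 and 7.22 per kb between sites, 4.99 and 6.17 before and 4.61 and 5.75 after. Pairs gave 6.91 and 8.46 per kb between sites and 5.03 and 6.16 before the first.

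CLIP and reads often pointed to different sites of an array. In arrays with 10 or more alignments, the site with most of them was also the most read one in 127 of 286 (44.4%, 38.6 to 50.4) in replicate 1 and in 136 of 318 (42.8%, 37.3 to 48.4) in replicate 2. The most read site makes up 28.8% and 28.9% of the sites of these arrays. First sites led in CLIP in 109 and 114 of these arrays, 38.1% and 35.8%, beside the same 28.8% and 28.9% of the sites. Alignments in both replicates were found at every site in 228 arrays, at some in 373 and at none in 194. Of the 2086 pairs, which have fewer sites, 899 had them at both sites, 575 at only 1 and 612 at none.

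One array held a large part of all array CLIP. On chromosome 17, plus strand, the 7 sites from 39983289 to 39985167 had 3762 and 3625 of the 12820 and 14523 alignments. They were not spread like the reads. The sixth site, 39984726, had 1416 and 1352 alignments with 481 pooled reads, and the last, with 5839 reads, had 281 and 284. Opposite-strand alignments at each of its sites numbered at most 4 and 9. The sites were diffuse. None had more than 38.1% of its reads at 1 position, beside a median of 67.9% over all array sites. Genes are not named here, so which RNA this locus gives, and whether these are cleavage sites of an mRNA, was not tested.

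The other arrays with most alignments had them mainly at 1 site. On the minus strand of chromosome 6, the last site, 72791107, had 140 and 162 alignments and 1678 pooled reads, while the second, 72792502, with 771 reads, had 1 and 1. In an array of 6 sites on chromosome 11, plus strand, the fifth, 77530229, had 120 and 135, against at most 16 and 17 at its neighbours. Sites 70 nt apart on the minus strand of chromosome 15, 31520637 and 31520567, differed, the upstream one with 117 and 139 alignments and the other with 19 and 19. On the plus strand of chromosome 17, 85416467 had 84 and 102 and the first site, 85413945, 38 and 46. At the main sites of these 4 arrays the CLIP and the reads peaked together.

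Many of the most read arrays were without CLIP. Of the 22 arrays with at least 10000 reads, 11 had no site with alignments in both replicates, and of the 532 with under 1000 reads 124 had none (23.3%). The 3 most read arrays without any alignment, on chromosomes 7, 5 and 16, held 138253, 107428 and 82788 pooled reads. Whether C2C12 cells express these loci was not tested, and the mix holds other lines, so a site without alignments is not shown to be free of CstF64.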

How the data were processed

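For 3'READS, RNA was selected for poly(A), fragmented, captured on an oligo, ligated to adapters and amplified by PCR, per the labels' protocols. The submitters' processing notes name mm9, Bowtie and Novoalign, without versions, and read filters are not given in the sources used here. The deposited values are raw read counts, in 1 line per position or, for CLIP, per distinct alignment, with no scaling named in the labels. The reference available was GRCm38, another build, so genes and sequences were not analysed here, and positions are exact to within 1 nt because their base is not given.

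Sites and arrays were built as described in the report with Python 3.11.15, numpy 2.4.6, pandas 2.3.3 and scipy 1.17.1 (figures with matplotlib 3.10.9). The rule, the members and the measures were chosen with earlier results of these data known. The ratio is CU5T45 over oligo(dT)10-25 reads, each divided by its library total, and its interval is the exact conditional binomial one, with a count of 0 set to 3 reads. Shares have Clopper-Pearson intervals, and medians have intervals from exact binomial ranks. Each CLIP alignment went by its midpoint to the nearest site within 100 nt. The arrays named are the 5 with most sites, the 5 with most reads, the 5 highest and the 5 lowest differences of the last-site share among arrays with 100 or more reads in each library, the 5 richest in CLIP by their lower replicate and the 3 most read without any. Ties went to the array with more reads, and arrays on chromosome 18 were not named. The functions were tested on simulated data with planted runs, ratios and alignments. No p-value was computed, since each oligo had 1 library.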

Additional observations from a re-analysis of the deposited data

How the results depend on the processing

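Of 166 values under alternatives, 105 stayed within the limits set for the value reported and 61 did not. These limits were its 95% interval or, for the number of arrays, which has no interval, a fold difference. For the difference of median log2 ratios the interval took its width from the within-array rank interval. The cause was not tested for any of the 61 beyond what each setting changes by construction.

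The read minimum set the number of arrays, 1232 at 20 reads and 316 at 60. Median shares were 18.1% (first) and 16.8% (middle) at 20 reads, 24.5%, 22.6% and 27.6% (first, middle, last) at 60, and 29.5%, 26.9% and 28.1% with each position counted once. At 60 reads the last-site share, CU5T45 minus oligo(dT)10-25, was -0.721 points and the same top site was found in 73.7%, against 82.9% with positions counted once. CLIP in both replicates was found at 48.4%, 41.4% and 44.4% of sites within 50 nt and at 66.5%, 58.7% and 62.1% within 200 nt, so first sites stayed highest. The difference of median log2 ratios, last minus first, was -0.11 at 20 reads and -0.09 with a chaining gap of 12 nt, against -0.05.

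CLIP alignments per 1000 reads, 12.4, 7.91 and 4.96 at first, middle and last sites, moved most. The alignments come from C2C12 cells and the reads from the mix, so this is no rate of binding. Reads were summed over sites, 295552 at first, 901816 at middle and 578528 at last sites, so abundant sites weigh most. In alignments per 1000 reads, first sites were above last sites under every setting run, while middle sites ranked highest, between them or lowest. They were 7.4 (middle) and 4.53 (last) with a chaining gap of 12 nt, 7.75, 9.18 and 5.34 with 48 nt, 9.62, 9.27 and 4.58 at 20 reads, 5.3, 12.2 and 3.85 at 60 reads, 8.62, 10.7 and 6.89 within 2000 nt, 13, 6.65 and 5.47 within 10000 nt, and 11.8 and 10.3 (first, middle) with all gaps of 100 nt or more. They were 8.71, 5.66 and 3.33 within 50 nt, 17.3, 10.7 and 7.71 within 200 nt, 14.2, 21 and 6.38 with every CLIP read, and 8.08 and 4.67 (middle, last) by 5′ ends. Leaving out 1 CLIP replicate gave 11.2 to 13.6, 7.6 to 8.22 and 4.57 to 5.36. In alternatives chosen after seeing the data, they were 12, 4.28 and 4.52 without the chromosome 17 array and 14.3, 17.7 and 9.07 without the 20 most read arrays.

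No analysis paired by sample was possible, because neither oligo has a second library to pair and CLIP was done on a single group. The comparisons within arrays pair sites or shares of the same array and give no replicate error.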
